A study of Drosophila melanogaster with 28 samples.

Results

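The regions described here are the 227 places on the Drosophila X chromosome where at least 1 chromatin immunoprecipitation with the MSL2 antibody gave a peak on chromatin assembled in vitro. All peaks of 9 lists were joined where they overlapped by at least 1 bp. This gave 1098 regions, of which 502 lay on X and 227 of those held an MSL2 peak. The regions were chosen by their MSL2 peaks, so their presence in the MSL2 lists is a description and was not tested.

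The chromatin was assembled on DNA purified from the BG-3 line, which was established from the nervous system of Drosophila larvae. Proteins were then added, and the samples were crosslinked and partly digested with MNase. The MSL2 antibody was used with MSL2 and a CLAMP mutant, with MSL2 and CLAMP, and with MSL2 alone (3 libraries each). The CLAMP antibody was used with MSL2 and the mutant, with MSL2 and CLAMP, with the mutant alone and with CLAMP alone (2 libraries each), and the FLAG antibody with the mutant alone and with CLAMP alone (2 libraries each). Each antibody also had a negative control whose labels name no added protein (7 libraries in all). The labels do not say what the CLAMP mutation is, and they do not give the amounts of protein. All 12 groups were made with BG-3 DNA that had been stripped of its own proteins, so the sites are those of the added proteins on assembled chromatin and not of living cells. The peaks of a group were called on its merged libraries, so no replicate error exists for any value below.

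MSL2 is the DNA-reading subunit of the dosage compensation complex, which raises transcription from the single X chromosome of Drosophila males. The complex first binds GA-rich elements on X and then spreads to active genes nearby, with the noncoding RNAs roX1 and roX2 as parts of it. CLAMP is a zinc finger protein that also binds GA-rich elements, on X and on autosomes, and is known in flies to help the complex find them. The series is about cooperation and competition between transcription factors.

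Most X regions with MSL2 were found when CLAMP was present, and fewer than 50% when its mutant was. The MSL2 antibody gave a peak at 90 of the 227 regions (39.6%) with the mutant, at 203 (89.4%) with CLAMP and at 71 (31.3%) with MSL2 alone. Over all 1098 regions the same lists gave peaks at 20.6%, 42.4% and 12.0%. The high shares on X follow from the choice of regions. The MSL2 lists rest on 20849151 tags with the mutant, 14660145 with CLAMP and 26822838 with MSL2 alone, so the deepest of the 3 gave the fewest regions. The 3 lists share 1 negative control. Without the list made with CLAMP, 124 of the 227 regions would remain. The first 50% of the lines of every list, in file order, gave 45 regions in all. The deposited score is 1 throughout, so this order is not shown to be a ranking by strength.

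**Figure D1:**
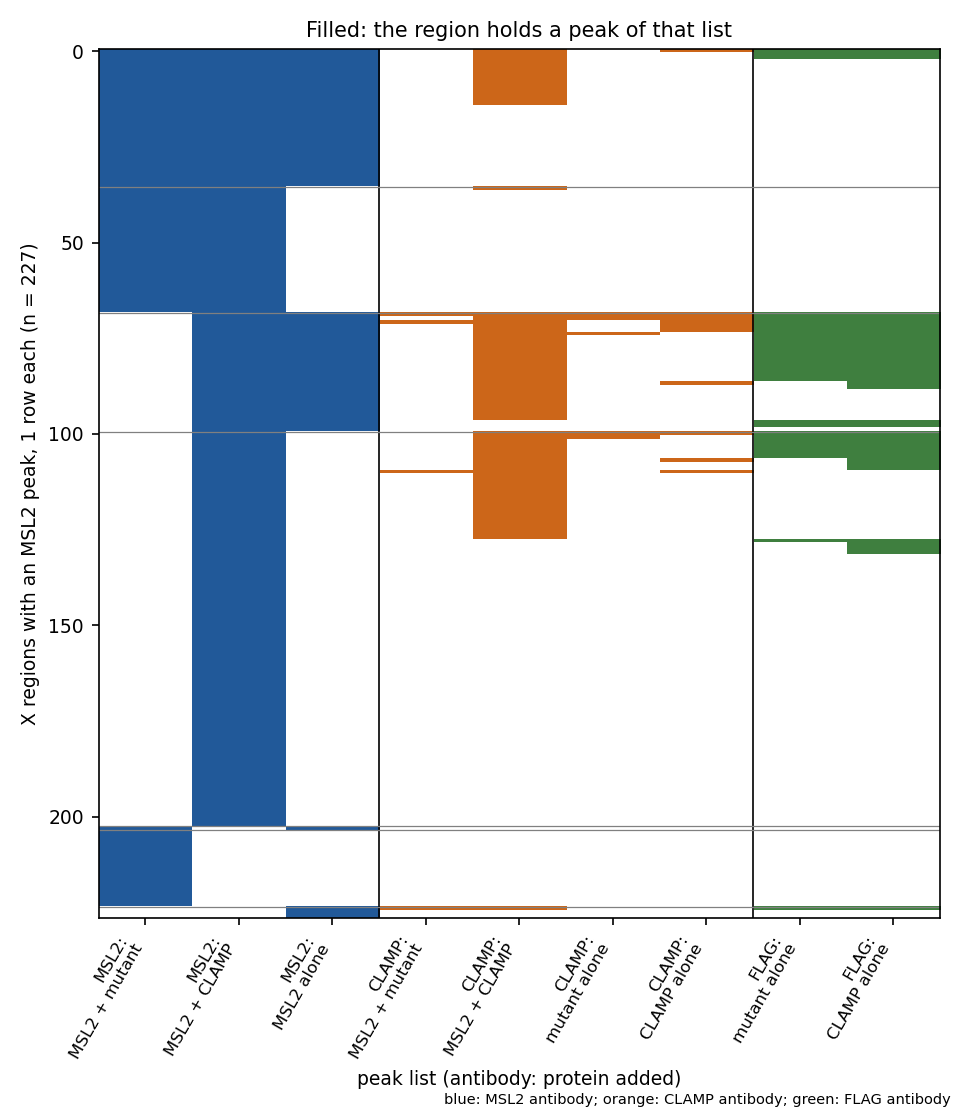
Each row is 1 of the 227 X regions and each column 1 of the 9 peak lists, named by antibody and added protein. A filled cell means that the region held a peak of that list. Grey lines part the combinations of the MSL2 lists. Blue cells fill the column of MSL2 with CLAMP in 203 rows, and the 33 rows with MSL2 peaks in both mixtures but not alone are nearly empty of orange and green cells.

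The regions fell into 7 combinations of the MSL2 lists. In all, 36 were found in every MSL2 list, 33 in both mixtures but not with MSL2 alone, 31 with CLAMP and alone but not with the mutant, and 1 with the mutant and alone. Another 20 were found with the mutant only, 103 with CLAMP only and 3 with MSL2 alone only. The 288 autosomal regions with an MSL2 peak were 39, 61, 16, 3, 32, 135 and 2 in the same order. Presence with CLAMP and alone, but not with the mutant, thus made up 13.7% of the X regions and 5.56% of the autosomal ones. Presence in both mixtures but not alone made up 14.5% of the X regions and 21.2% of the autosomal ones. These shares were not tested.

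Among the 36 regions found in every MSL2 list were 2 in Tomosyn, an inhibitor of synaptic vesicle release (chrX:12648221-12648423 and chrX:12649464-12649716, build dm6), which lay 1041 bp apart. Others lay in CG42699 (chrX:5788778-5788984), in hiw, a ubiquitin ligase of synapses (chrX:15052062-15052333), in PhKgamma, the catalytic subunit of phosphorylase kinase (chrX:11703160-11703408), and in CG15247 (chrX:9876553-9876743). Cph, a zinc finger factor, held 2 of them (chrX:7152808-7152959 and chrX:7154068-7154422). Another lay outside gene bodies, 4666 bp from CG33664 (chrX:6379190-6379554).

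The 31 regions found with CLAMP and with MSL2 alone, but not with the mutant, included the region held by the most lists. The region in para, the voltage-gated sodium channel of neurons (chrX:16501627-16501850), was in 8 of the 9 lists and missing from that of MSL2 with the mutant. The regions in CG34408 (chrX:10224687-10225024) and in mei-P26, a TRIM protein gene of the germline (chrX:9174069-9174286), were in 7 lists. Those in rsh (chrX:13039176-13039507), in acj6, a POU-domain factor of neurons (chrX:15356656-15356836), and in Hk, a subunit of Shaker potassium channels (chrX:10257615-10257784), were in 6. No X region was in all 9 lists, and 93 of the 227 were in 1 list.

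The mutant gave a further 20 regions of its own, all in that single list. They included sites in kirre, a cell adhesion protein of myoblast fusion (chrX:2845376-2845526), in Tlk, a protein kinase of chromatin (chrX:3768596-3768746), in CG12206 (chrX:3465687-3465837) and in CG15894 (chrX:6309067-6309217). None of the 20 held a peak of any CLAMP or FLAG antibody list. The 33 regions of both mixtures that were absent with MSL2 alone were alike in this, since 32 held no such peak. The exception lay in Smr, a corepressor (chrX:12716089-12716261), which also had a CLAMP antibody peak with MSL2 and CLAMP. Others of these 33 lay in SK, a calcium-activated potassium channel (chrX:5341579-5341824), in Frq2, a calcium sensor of synapses (chrX:18186628-18186831), in shakB, an innexin of electrical synapses (chrX:20923714-20923909), and in CG43759 (chrX:19012833-19013123). For comparison, 148 of all 227 X regions held no CLAMP or FLAG antibody peak. On autosomes, 31 of the 32 regions found with the mutant only held none. The same was true of 60 of the 61 autosomal regions of both mixtures that were absent with MSL2 alone. The lack of such peaks in these 2 combinations is thus not particular to X.

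The largest combination, the 103 regions found by MSL2 with CLAMP only, was mostly seen in that single list. Of these, 71 held no other peak, 28 held a CLAMP antibody peak of the same mixture, 14 a FLAG CLAMP peak and 8 a FLAG mutant peak. Over all 227 regions 148 held no CLAMP or FLAG antibody peak, which is a similar share. The region in this combination with the most lists, 6, lay in mamo (chrX:13882417-13882611) and held both FLAG peaks and 3 CLAMP antibody peaks. Those in fne, an RNA-binding protein gene of the Elav family (chrX:12926202-12926416), in CanA-14F, a catalytic subunit of calcineurin (chrX:16562460-16562617), and in Vav (chrX:19264327-19264748), held both FLAG peaks too. The Vav region was the widest of all at 422 bp. Of the 3 regions found with MSL2 alone only, those in Tlk (chrX:3738150-3738300) and Gs2, a glutamine synthetase gene (chrX:11427452-11427602), were in no other list.

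CLAMP and FLAG antibody peaks were not used to choose the regions, and 79 of the 227 held at least 1 (34.8%, exact 95% interval 28.6 to 41.4). Of these, 38 had a peak of the CLAMP antibody with MSL2 and CLAMP as their single such peak. The CLAMP antibody with MSL2 and CLAMP gave a peak at 73 regions (32.2%, 26.1 to 38.7), against 39.1% of all 1098 regions. These were 32.9% of the 222 peaks of that list on X. Without that list, which has the fewest tags of all (3875205), 41 regions held a CLAMP or FLAG antibody peak (18.1%, 13.3 to 23.7). Intervals here are of the Clopper-Pearson kind and cover the counting error of regions only.

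For each of the other lists the share of X regions with MSL2 was below that over all regions, which lay inside the interval for the CLAMP antibody with the mutant alone and with CLAMP alone. The FLAG antibody gave a peak at 32 with the mutant (14.1%, 9.85 to 19.3; 20.4% of all regions) and at 40 with CLAMP (17.6%, 12.9 to 23.2; 32.2% of all regions). These were 29.6% of the 108 X peaks of the FLAG mutant list and 23.8% of the 168 of the FLAG CLAMP list. The remaining CLAMP antibody lists gave peaks at 4 regions for the mutant with MSL2 (1.76%, 0.482 to 4.45; 6.38% of all regions), at 5 for the mutant alone (2.2%, 0.719 to 5.07; 3.46% of all regions) and at 10 for CLAMP alone (4.41%, 2.13 to 7.95; 6.74% of all regions). The 4 lay in para, CG34408, CG1695 and Paics, a purine synthesis gene, and none of them held an MSL2 peak in the mixture with the mutant. The 5 lay in para, mei-P26, rsh, mamo and rdgA. Apart from OdsH, a homeobox gene, the 10 of CLAMP alone lay in genes named here, among them para, Hk, acj6, mamo and Tomosyn. The shares over all regions count regions that were kept for a CLAMP or FLAG peak in the first place, so they lie high by construction.

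Beside the autosomal regions with an MSL2 peak, those on X more often held a CLAMP antibody peak of the MSL2 and CLAMP mixture. The share was 32.2% on X and 14.2% (41 of 288, 10.4 to 18.8) on autosomes, with intervals that did not meet. As a share of that list's peaks it was 32.9% (26.7 to 39.5) of the 222 on X and 19.9% of the 206 on autosomes. Either FLAG list gave a peak at 40 of the 227 X regions and at 36 of the 288 autosomal ones. Among the regions without a FLAG peak, 39 on X and 18 on autosomes had the CLAMP antibody peak of that mixture. For the FLAG antibody the shares were 14.1% on X and 10.4% (7.14 to 14.5) on autosomes with the mutant, and 17.6% and 12.2% (8.61 to 16.5) with CLAMP, with intervals that overlapped. The spread between libraries is not known, so no test of the difference between X and autosomes could be made.

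**Figure D2:**
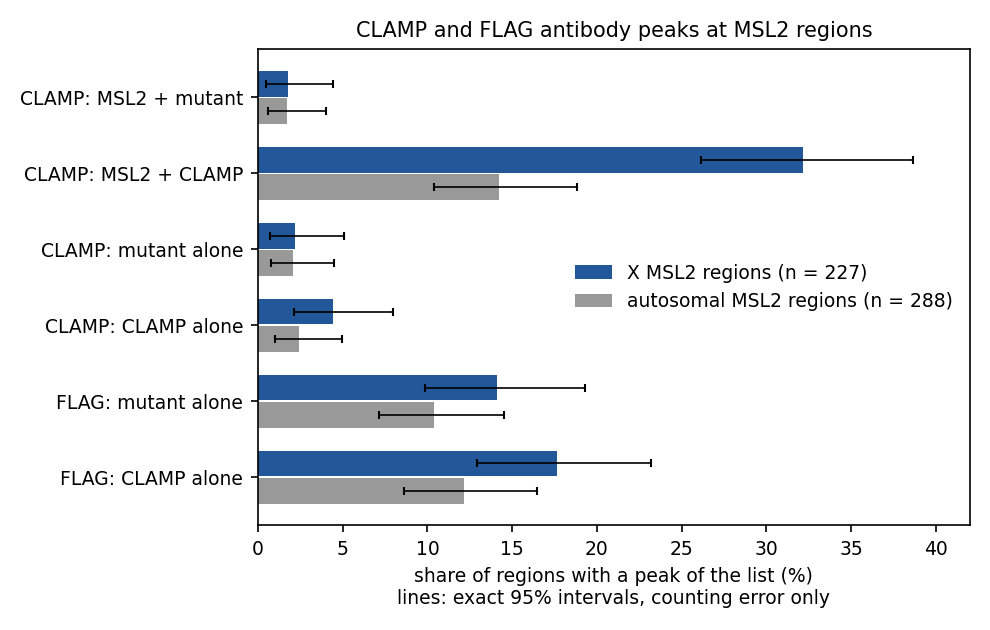
Bars give the share of MSL2 regions (%) that also held a peak of each CLAMP or FLAG antibody list, for 227 X regions (blue) above 288 autosomal regions (grey). Lines are exact 95% intervals of counting error. The intervals of X and autosomes part for the CLAMP antibody with MSL2 and CLAMP (32.2% and 14.2%) and overlap for the other 5 lists.

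The MSL2 lists differed widely at regions with a FLAG antibody peak, be it of the mutant or of CLAMP. All 32 X regions with a FLAG mutant peak also held a FLAG CLAMP peak, and both lists share 1 negative control. At the 40 X regions with a FLAG CLAMP peak, MSL2 was found at 3 with the mutant (7.5%, 1.57 to 20.4), at 39 with CLAMP (97.5%, 86.8 to 99.9) and at 26 alone (65%, 48.3 to 79.4). At the 32 X regions with a FLAG mutant peak, MSL2 was found at 3 with the mutant (9.38%, 1.98 to 25.02), at 31 with CLAMP (96.9%, 83.8 to 99.9) and at 24 alone (75%, 56.6 to 88.5). At the 195 regions without one, it was found at 87 with the mutant (44.6%, 37.5 to 51.9), at 172 with CLAMP (88.2%, 82.8 to 92.4) and at 47 alone (24.1%, 18.3 to 30.7). At the 8 regions with a FLAG CLAMP peak and no FLAG mutant peak, MSL2 was found at 0 with the mutant, with an upper limit of 37.5% from 3 counts in 8, at 8 with CLAMP and at 2 alone. At the 148 regions without any CLAMP or FLAG antibody peak, MSL2 was found at 74 with the mutant (50%, 41.7 to 58.3), at 125 with CLAMP (84.5%, 77.6 to 89.9) and at 25 alone (16.9%, 11.2 to 23.9).

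These shares use the lists that chose the regions, since each region had to hold MSL2 in at least 1 of them, and they were not tested. A like split over X and autosomes together was known from these lists before, so the X regions are no independent support for it. Autosomal regions with a FLAG mutant peak held MSL2 at 1 of 30 with the mutant, 29 of 30 with CLAMP and 13 of 30 alone. In a wider setting, a list counted at a region where a peak centre lay within 500 bp of the region's centre. This applied to the MSL2 lists as well as to the FLAG lists. By it, 6 of 35 X regions at FLAG mutant sites counted as holding MSL2 with the mutant (17.1%, 6.56 to 33.6).

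**Figure D3:**
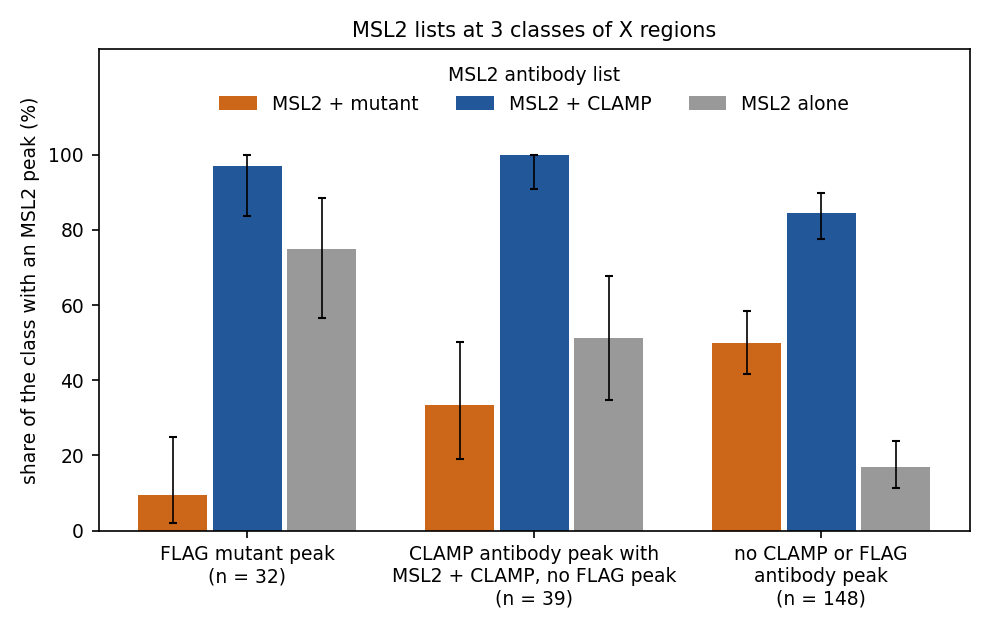
Bars give the share (%) of 3 classes of X regions with a peak in each MSL2 list, with MSL2 and the mutant in orange, MSL2 and CLAMP in blue and MSL2 alone in grey, and lines the exact 95% intervals of counting error. Orange bars stand at 9.38%, 33.3% and 50%, blue bars at 96.9%, 100% and 84.5%, and grey bars at 75%, 51.3% and 16.9% from the left class to the right one.

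The 3 FLAG mutant sites that held an MSL2 peak with the mutant lay in Tomosyn and CG42699 and 4666 bp from CG33664. Within them the centres of the MSL2 peak of that mixture and of the FLAG mutant peak were 52, 24 and 199 bp apart. The 199 bp near CG33664 exceed the usual peak width of 151 bp, so those peaks were joined through another peak and did not overlap directly. The other 29 sites were in genes of varied kinds. They included norpA, the phospholipase C of phototransduction (chrX:4361585-4361784), ctp, a dynein light chain gene (chrX:4690924-4691125), Neto, an auxiliary protein of glutamate receptors (chrX:13518010-13518184), wupA, which encodes troponin I (chrX:18108131-18108283), and CanA-14F.

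Close neighbours could differ in their MSL2 lists. In 12 pairs of X regions lying within 1 kb of each other, MSL2 with the mutant was found at neither region in 5 pairs, at 1 of them in 6 and at both in 1, the pair in Dop2R, a dopamine receptor gene. The pairs hold 23 regions, since the middle region of CG11122 pairs with both of its neighbours. Over all 227 regions that list held 39.6%. Whether regions of a pair differ more often than this share alone would give was not tested. In CG1695, 2 regions 80 bp apart were the closest of all. The left one (chrX:20436726-20436949) was in all MSL2 lists and in no other. The right one (chrX:20437029-20437243) was found with MSL2 alone, in both FLAG lists and in both CLAMP antibody lists with MSL2, but in neither mixture with the MSL2 antibody. The authors' peak caller kept peaks of 1 list at least 300 bp apart, which can bar a second call so close to the first, and its part in the difference was not tested. Under the same limit the list of MSL2 alone held a peak in both CG1695 regions. In disco-r, a zinc finger gene, the left region (chrX:16146948-16147132) was in all MSL2 lists and had a CLAMP antibody peak with MSL2 and CLAMP. The right one (chrX:16147621-16147839), 489 bp away and with both FLAG peaks, was absent with the mutant. In the potassium channel gene Sh a region found only with the mutant (chrX:17963132-17963282) lay 189 bp from one found with CLAMP by the MSL2 and CLAMP antibodies (chrX:17963471-17963654). Of the 90 regions in the MSL2 list with the mutant, 3 lay within 1 kb of a FLAG mutant peak without overlapping it, in Tomosyn (50 bp), CG1695 (111 bp) and disco-r (489 bp). Of the 137 regions not in it, 3 did too.

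Within shared regions the peak centres of the lists lay close together, which follows largely from the way peaks were joined. Peaks of 151 bp that overlap directly have centres less than 151 bp apart, and wider distances need joining through another peak. The distances below are a description, and whether they are shorter than overlap alone would give was not tested. On the 69 X regions with MSL2 in both mixtures, the centres with the mutant and with CLAMP were a median of 13 bp apart (quartiles 2 and 29). Those with CLAMP and with MSL2 alone were 14 bp apart (2 and 38, n = 67). The MSL2 and CLAMP antibody peaks of the MSL2 and CLAMP mixture were 27.5 bp apart (3.75 and 78.25, n = 72), with the widest distance of 271 bp. MSL2 with CLAMP and FLAG CLAMP were 22 bp apart (7 and 45, n = 39). On autosomal regions the 4 medians were 4 bp (n = 100), 13 bp (n = 55), 12 bp (n = 39) and 4.5 bp (n = 34) in the same order, so that of MSL2 with CLAMP and alone was close to the 14 bp of X. The FLAG peaks of mutant and CLAMP were 8.5 bp apart on X (1 and 40, n = 32) and 1 bp on autosomes (0 and 4, n = 29). None of these differences was tested, and lists of 1 antibody share their negative control.

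**Figure D4:**
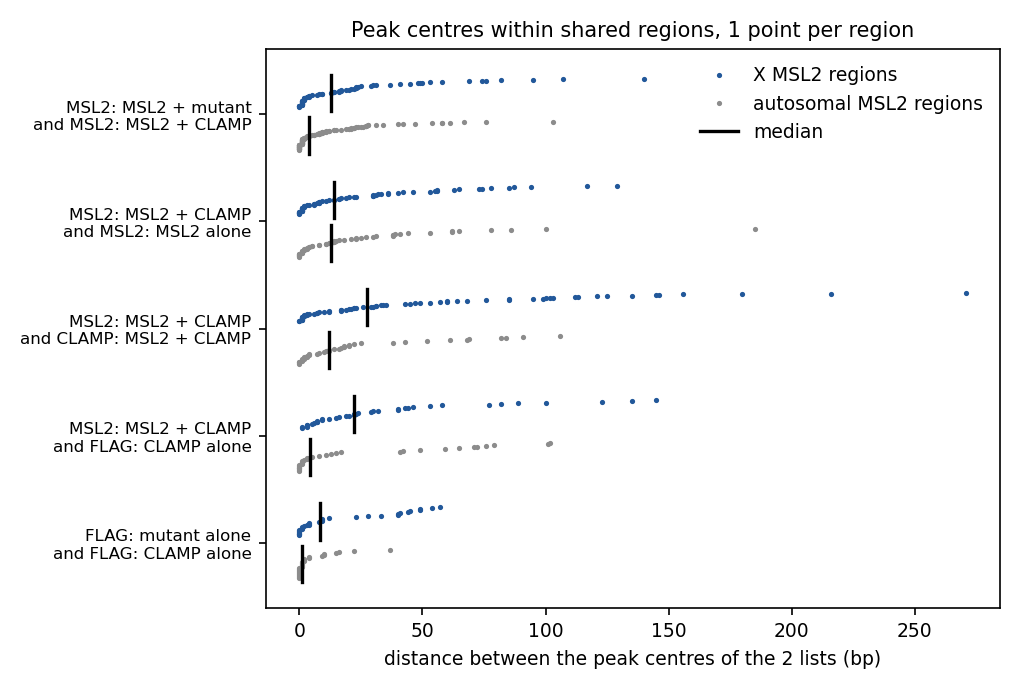
Each point is 1 region with a peak in both lists named on the left, at the distance in bp between the 2 peak centres. X regions (blue) are above autosomal regions (grey), and black lines are medians. The X medians for the MSL2 and CLAMP antibodies in 1 mixture (27.5 bp) and the FLAG lists (8.5 bp) lie above the autosomal 12 and 1 bp, while those for MSL2 with CLAMP and alone are close (14 and 13 bp).

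Where the joining of peaks was close to its limit, 5 of the 164 CLAMP or FLAG antibody peaks in these regions did not overlap an MSL2 peak directly and were joined through another peak. They included those in Vav and in dnc, a cAMP phosphodiesterase (chrX:3325806-3326172), where the gaps to the MSL2 peak were widest. Just outside, the X regions without MSL2 that lay nearest to one with it were in CG43902 (5 bp away, chrX:10170989-10171179), in Cph (12 bp, chrX:7154434-7154584), in CrebB, a CREB transcription factor (28 bp, chrX:18374834-18374991), and in Tomosyn (39 bp, chrX:12649755-12649916). In all, 17 X regions without MSL2 lay within 1 kb of one with it.

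Of the 227 regions 202 overlapped a gene body (89.0%, 84.2 to 92.7). Of all X windows of the median region width, 154 bp, 75.7% touch a gene body. The share was 83.3% (78.5 to 87.4) for autosomal MSL2 regions and 78.5% (73.2 to 83.2) for the 275 X regions without MSL2. The 25 regions outside lay 14 to 16038 bp from the nearest gene. The longest gene at a region had a median length of 27937 bp, near the 32852 bp that a median base of X gene bodies has. Region width ran from 151 to 422 bp, with a median of 212 bp for the 47 regions in 4 or more lists, and 151 bp is the width of a single peak. Whether a region lay in an exon, an intron or at a promoter was not analysed here.

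A total of 163 of the 2197 protein-coding genes on X held a region (7.42%), 132 of them 1 and 21 of them 2. Another 10 held 3 or more, and 9 of these were Sh, mamo, CG11122, Cph, Smr, cac, dnc, eag and rdgA. Sh, a voltage-gated potassium channel gene 138941 bp long, held 8. Of these, 2 were in the MSL2 list with the mutant, 7 in that with CLAMP and 1 in that of MSL2 alone. The Sh region of MSL2 alone (chrX:18023722-18024029) was also found with CLAMP, with the CLAMP antibody in that mixture and in both FLAG lists. A second with both FLAG peaks (chrX:18035850-18036061) was found with CLAMP only by the MSL2 antibody.

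The mutant list held 39.6% of all 227 regions, and its counts varied between these genes. Each gene had few regions, chosen by the MSL2 lists, so the counts are a description and were not tested. In mamo, a zinc finger factor of germline and neurons, all 4 regions in the gene body were found by MSL2 with CLAMP only. All 4 had a CLAMP antibody peak in that mixture. A further region within 2 kb of mamo, in AMPdeam (chrX:13844114-13844264), was found with the mutant only. All 3 regions of dnc were found by MSL2 with CLAMP only, of which 2 held a FLAG CLAMP peak. In eag, a potassium channel gene, and in rdgA, a diacylglycerol kinase of photoreceptors, 0 of 3 regions were found with the mutant, 3 with CLAMP and 2 with MSL2 alone. Cph and Smr each had 2 of 3 regions found with the mutant, and none of these 6 regions held a FLAG peak. For Cph this rests on the overlap rule. A FLAG CLAMP peak (chrX:7154434-7154584) lay 12 bp from a Cph region found with the mutant (chrX:7154068-7154422). In cac, a presynaptic calcium channel gene, 1 region was found only with the mutant (chrX:11960225-11960375) and 2 only with CLAMP. In CG11122 the middle of 3 regions (chrX:11117755-11117909) was found with the mutant and CLAMP, while those on either side, 780 and 492 bp away, were found with CLAMP only and had a CLAMP antibody peak.

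**Figure D5:**
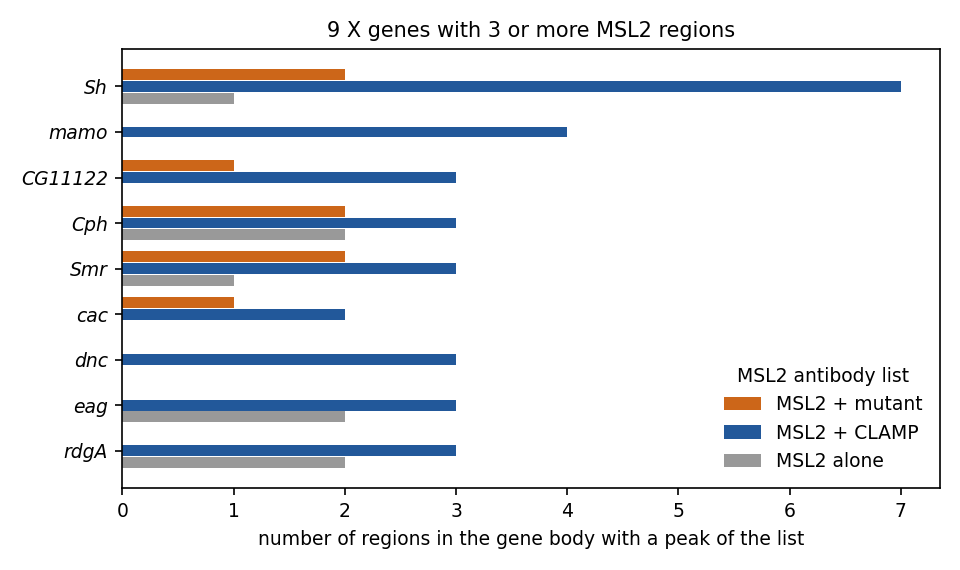
Bars give, for 9 protein-coding X genes with 3 or more MSL2 regions, the number of regions in the gene body with a peak of the MSL2 antibody with MSL2 and the mutant (orange), with MSL2 and CLAMP (blue) and with MSL2 alone (grey). Orange bars are missing for mamo, dnc, eag and rdgA, and the longest bar is the 7 regions of Sh with CLAMP.

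Among 9 genes of the dosage compensation pathway, 3 are on X. The region in roX2 (chrX:11580230-11580380) was found by MSL2 with CLAMP and alone, and by the CLAMP antibody with MSL2 and CLAMP. It held no FLAG peak and was absent with the mutant. The region within 2 kb of mof, the acetyltransferase gene of the complex, lay in GAA1 (chrX:5872789-5873015) and was found in both mixtures, but not with MSL2 alone. No region lay in or within 2 kb of roX1.

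Of 16 X genes of ion channels and gap junctions, 11 had a region in or within 2 kb, 25 regions in all, and of 20 X transcription regulators 9 had 19. This is 27.3 and 24.0 regions per Mb, against 9.64 over X. Both lists were drawn up with earlier results of these data known, so the excess is no evidence about such genes. The channel genes with a region were para, cac, eag, Sh, Hk, SK, Ca-alpha1T, nAChRalpha3, iav, shakB and ogre. The second region of para (chrX:16492364-16492624), 9003 bp from the first, was the single X region found with the mutant and alone but not with CLAMP, and it held no CLAMP or FLAG peak. Ca-alpha1T, a calcium channel gene, held a region in 5 lists (chrX:6189523-6189884) and one found by MSL2 with CLAMP only (chrX:6109390-6109540). Among the regulators, run, a pair-rule gene, held 2 regions found by MSL2 with CLAMP only (chrX:20694034-20694184 and chrX:20694917-20695067), and sd, a partner of the growth regulator Yorkie, held 1 found in both mixtures (chrX:15824988-15825139). The 2 regions near ovo lay in lncRNA:CR44833, 508 bp apart (chrX:5047166-5047376 and chrX:5047884-5048035), and both had a CLAMP antibody peak.

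The regions were spread along X, at 9.64 per Mb, against 2.62 per Mb for MSL2 regions on the autosomal arms. X regions without MSL2 were denser still, at 11.7 per Mb, so the density on X is not particular to regions with MSL2. In steps of 1 Mb the count ran from 0 to 21. The stretch from 11 to 12 Mb, which holds roX2, had the 21, beside 8 X regions without MSL2, whereas that from 9 to 10 Mb had 13 beside 26. No region lay beyond 22 Mb, and the last ended at 21444163. The longest gap between neighbouring regions was 996809 bp, between the gene r and IntS2 (from 16656047 to 17652856). The nearest other region was a median of 26267 bp away (80 to 312839), against 117830 bp for the sparser autosomal regions, and 38 of 227 had another within 5 kb (16.7%, 12.1 to 22.2), against 6.94% (4.29 to 10.5) on autosomes. X regions without MSL2, of which there are more, were a median of 16601 bp apart, and 22.2% (17.4 to 27.6) had another such region within 5 kb.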

How the data were processed

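Peak lists covered 9 of 12 groups of 28 libraries. Per the submitters' processing notes, Bowtie2 2.2.9, SAMtools 1.9, HOMER 4.9 and build dm6 were used. Per the file headers, the authors called peaks of 150 bp with HOMER on merged tags against the same antibody's negative control. A peak needed 10-fold over it and 4-fold over 10000 bp around (Poisson p 1e-04, false discovery rate 0.001), at least 300 bp from the next. Absence from a list is therefore no measured loss. Total tags ran from 3875205 to 26822838. The deposited score is 1 throughout and was not used. Replicates were pooled by the authors, so no test between conditions was possible.

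Starts were made 1-based and peaks joined with Python 3.11.15. bedtools 2.31.1 gave the same counts of 1098 and 227 regions, and the code was tested on simulated data. Intervals used scipy 1.17.1 and figures matplotlib 3.10.9. Genes came from RefSeq's dm6 table, which has no strand, exons or sequence. The planned GA-repeat count was not analysed here. Named regions are those in or within 2 kb of listed genes, up to 8 per MSL2 combination by number of lists, width and position, those in 6 or more lists, genes with 3 or more, the widest and closest. Those at FLAG mutant sites and just outside were picked after their values were seen. Of the genes with 3 or more regions, 1 is not reported here. Members and lists were chosen with earlier results of these data known.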

Additional observations from a re-analysis of the deposited data

How the results depend on the processing

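Of 53 values under alternative settings, 44 stayed within the exact interval, or within 1.5 times for the count of regions, and 9 moved. With only the first 50% of the lines of every list, in file order, 45 regions remained on X. Of these, 93.3% (81.7 to 98.6) were found by MSL2 with CLAMP and 8.89% (2.48 to 21.2) held a FLAG mutant peak. A CLAMP antibody peak of MSL2 with the mutant was held by 0%, with an upper limit of 6.67%. These ranges cover the main values of 89.4%, 14.1% and 1.76%. Without the MSL2 list with CLAMP, 124 regions remained (a setting added once the data had been seen, as was the next). Without the CLAMP antibody list of MSL2 and CLAMP, 18.1% held a CLAMP or FLAG antibody peak. Where a peak had to overlap an MSL2 peak by 50%, 25.1% held that list's peak. Another region lay within 2 kb for 11.9% and within 10 kb for 26.9%, by construction of the limit. Joining peaks within 500 bp gave 221 regions. No paired analysis was possible because each list was called on merged libraries, and leaving out a replicate could not be run for the same reason. GA repeats were not run for want of sequence. Tag depth differs between lists and their order of depth is not that of length, so a region's absence may lie under a threshold, and counts between lists have no replicate error.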
